A study of Mus musculus with 81 samples.

Results

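The subject is the change of kidney F4/80high macrophages between embryonic day 14 (E14) and adulthood in wild-type mice. F4/80 is the surface protein encoded by Adgre1, and the cells were sorted by flow cytometry on a high level of it. The samples were chosen by their labels: 3 adult wild-type samples (6 weeks old) and the 2 embryonic wild-type samples, 5 of the 80 samples of the series. The series profiled macrophage populations of the brain, liver, kidney, skin and yolk sac in wild-type and Irf8 knockout mice, on expression arrays. Both groups compared carry no knockout allele and received no treatment other than collagenase digestion of the tissue, and the embryos came from timed matings. The labels name no strain, sex or pooling of animals, so the spread between samples behind the p-values may be technical in part. That spread was estimated over all 80 samples in 27 groups, not from the 5 compared samples alone. Values are log2 levels, and a gene is represented by its brightest probe among the probes with exactly 1 gene symbol. Of 22180 genes, 17070 exceeded 3.04, the median of all values of the table, in at least 2 arrays and were tested.

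Resident macrophages of the kidney are seeded before birth by cells from the yolk sac and the fetal liver, and they divide while the organ grows. In the adult they line the tubules and the small vessels, sample filtered material and present peptides on major histocompatibility complex (MHC) class II molecules to CD4 T cells. MHC class II genes are switched on by the coactivator Ciita through conserved promoter boxes called X and Y, and interferon-stimulated genes by STAT and IRF proteins through a promoter element called the ISRE.

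The sorted cells carried the defining macrophage genes at both stages. Adgre1 read 10.12, 10.39 and 10.26 in the adults and 9.77 and 9.63 in the embryos, and its change of 0.56 ± 0.30 (standard error of the fit) did not pass the test (adjusted p = 0.17). Csf1r, the receptor for the macrophage growth factor, read 10.67, 10.81 and 10.84 against 10.37 and 10.18, and Cd68 stayed between 10.48 and 10.82 in all 5 samples. Irf8, the transcription factor removed in the knockout mice of the series, read 9.54, 9.62 and 9.64 against 8.98 and 8.98, a difference of 0.62 ± 0.28 that did not pass the test (adjusted p = 0.0942). Across the tested genes, replicates correlated at 0.967 to 0.976 among adults and at 0.980 between the embryos, against 0.891 to 0.917 across the stages.

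The samples also differed in other ways. Genes of kidney tubule cells were high in the adult libraries, most of all in adult replicate 1, whose mean over 18 proximal tubule genes was 7.13 against 5.62 and 5.56 in the other adults and 2.84 and 3.02 in the embryos. Sex moved with stage as well: the Y-linked gene Kdm5d read 6.08, 6.16 and 6.08 in the adults, 2.43 in embryonic replicate 1 and 6.03 in embryonic replicate 2. Xist, the RNA of the inactive X chromosome, read 2.97, 2.58 and 3.57 in the adults against 9.74 and 6.01. Embryonic replicate 1 was thus high for Xist and low for Kdm5d, and embryonic replicate 2 carried both. The part of tubule RNA and of sex in the results below was not tested, apart from the counts given without adult replicate 1 and without the genes of chromosomes X and Y.

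Many genes differed between the stages. At an adjusted p under 0.05 (limma over all 17070 genes, Benjamini-Hochberg adjustment, which defines "called", "rose" and "fell" throughout), 4806 genes changed, 28.2% of those tested. Of these, 2082 were higher in the adult (12.2%) and 2724 lower (16%). By more than 1 log2 unit, 1289 rose (7.55%) and 1330 fell (7.79%). The median change of all tested genes was −0.05. Samples did not overlap for 23.2% of genes with the adults above and 29% with the adults below, and these were also called for 12% and 15.7%. Without adult replicate 1 the counts were 1699 higher and 2315 lower, and without the genes of chromosomes X and Y they were 2028 and 2622. Leaving out embryonic replicate 2 lowered the count of higher genes most, to 1297.

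**Figure D1:**
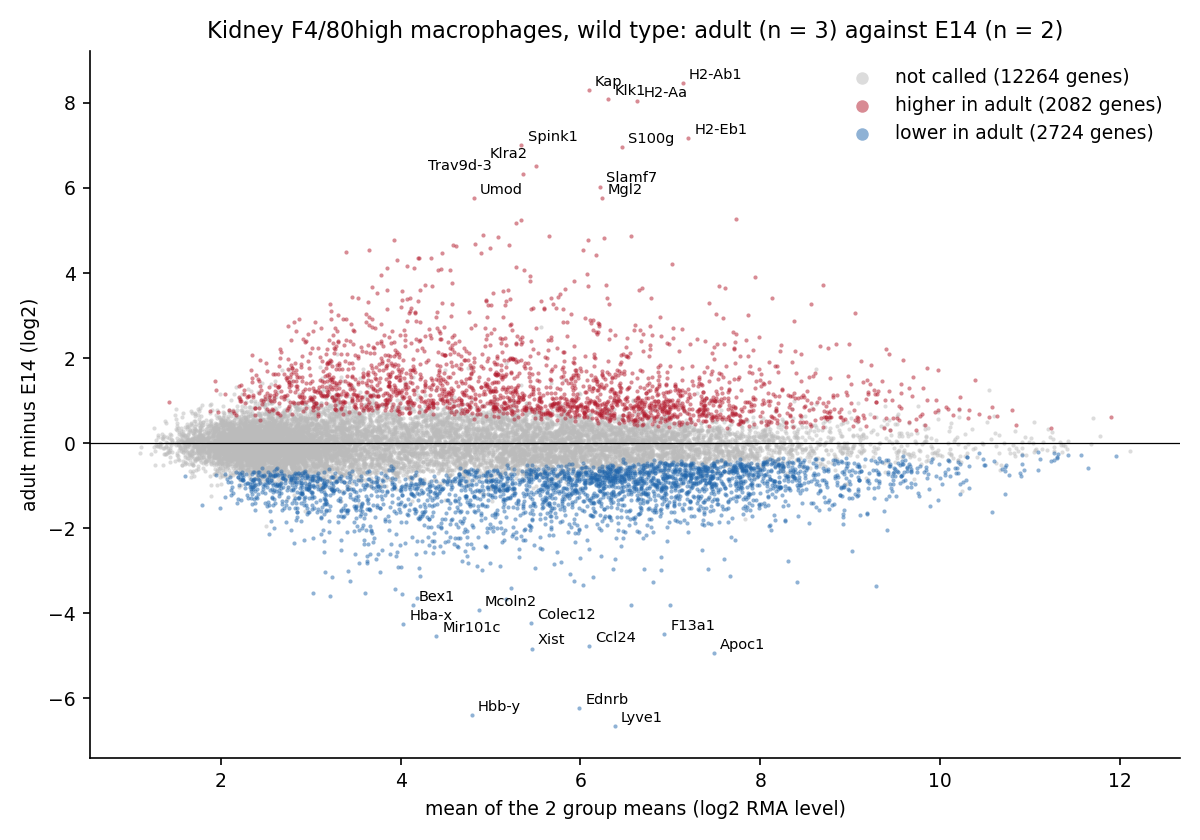
Difference between the adult and E14 group means (vertical axis, log2) against the mean of both group means (horizontal axis, log2 level) for 17070 tested genes. Red points are the 2082 genes called higher in the adult and blue points the 2724 called lower, with names at the 12 largest rises and the 12 largest falls, which run up to 8.47 (H2-Ab1) and down to −6.65 (Lyve1).

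The 12 largest rises fell into 3 kinds of gene. The MHC class II chains H2-Ab1, H2-Aa and H2-Eb1 rose by 8.47, 8.05 and 7.17. Kap, the androgen-regulated protein of the proximal tubule, rose by 8.31 ± 0.32, and Klk1 (tissue kallikrein), Spink1 (a trypsin inhibitor), S100g (a calcium-binding protein of the distal tubule) and Umod (uromodulin of the thick ascending limb) rose by 8.09, 7.0, 6.95 and 5.77. Among genes of immune cells, Klra2, an inhibitory Ly49 receptor, read 8.50, 9.14 and 8.64 in the adults against 2.44 and 2.05, a rise of 6.51 ± 0.51 (adjusted p = 1.28e-15). Slamf7, a receptor of the SLAM family, read 9.44, 9.23 and 9.03 against 3.20 and 3.21. Mgl2, a galactose-binding lectin of tissue macrophages and dendritic cells, read 9.20, 9.06 and 9.08 against 2.54 and 4.16. For each of these genes every adult sample lay above both embryonic samples, and all 12 kept their call when each of the 5 samples was left out in turn. Trav9d-3, a variable segment of the T cell receptor, also stood among them, at 8.61, 8.52 and 8.47 against 2.26 and 2.15. Its rise of 6.33 became 1.81 when the gene's probes were averaged. The array cannot separate it from near-identical segments, nor Klk1 from other members of the kallikrein family.

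The 12 largest falls held surface receptors, secreted proteins and embryonic globins. Lyve1, a hyaluronan receptor, read 2.77, 3.22 and 3.18 in the adults against 9.59 and 9.82 in the embryos, a fall of 6.65 ± 0.62 (adjusted p = 8.99e-13). Ednrb, the endothelin B receptor, read 3.02, 2.73 and 2.85 against 9.05 and 9.16, and Colec12, a scavenger receptor with a collagen-like stalk, read 2.59, 3.70 and 3.69 against 7.53 and 7.61. The apolipoprotein gene Apoc1 fell from 10.03 and 9.88 to 4.29, 5.05 and 5.68, and the eotaxin gene Ccl24 from 8.29 and 8.68 to 2.80, 4.28 and 4.04. F13a1, the A chain of coagulation factor XIII, read 9.19 and 9.18 in the embryos and 2.72, 5.29 and 6.03 in the adults, so the adults varied among themselves by more than 3 log2 units, and in a fit of the 5 compared samples alone it was not called (adjusted p = 0.0685). Mcoln2, an endolysosomal cation channel, fell by 3.93 ± 0.46, Bex1 by 3.82 ± 0.43, and a probe annotated to the Mir101c locus, which does not read the mature miRNA, by 4.54 ± 0.58. The embryonic globins Hbb-y and Hba-x fell by 6.41 and 4.25; they are transcripts of primitive red cells and share sequence with the other globins. In bulk samples, fewer cells of a type and less RNA per cell cannot be told apart. Xist completed the 12; its call was lost without embryonic replicate 1 (adjusted p = 0.414) and without each adult in turn, while the other 11 kept theirs.

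**Figure D2:**
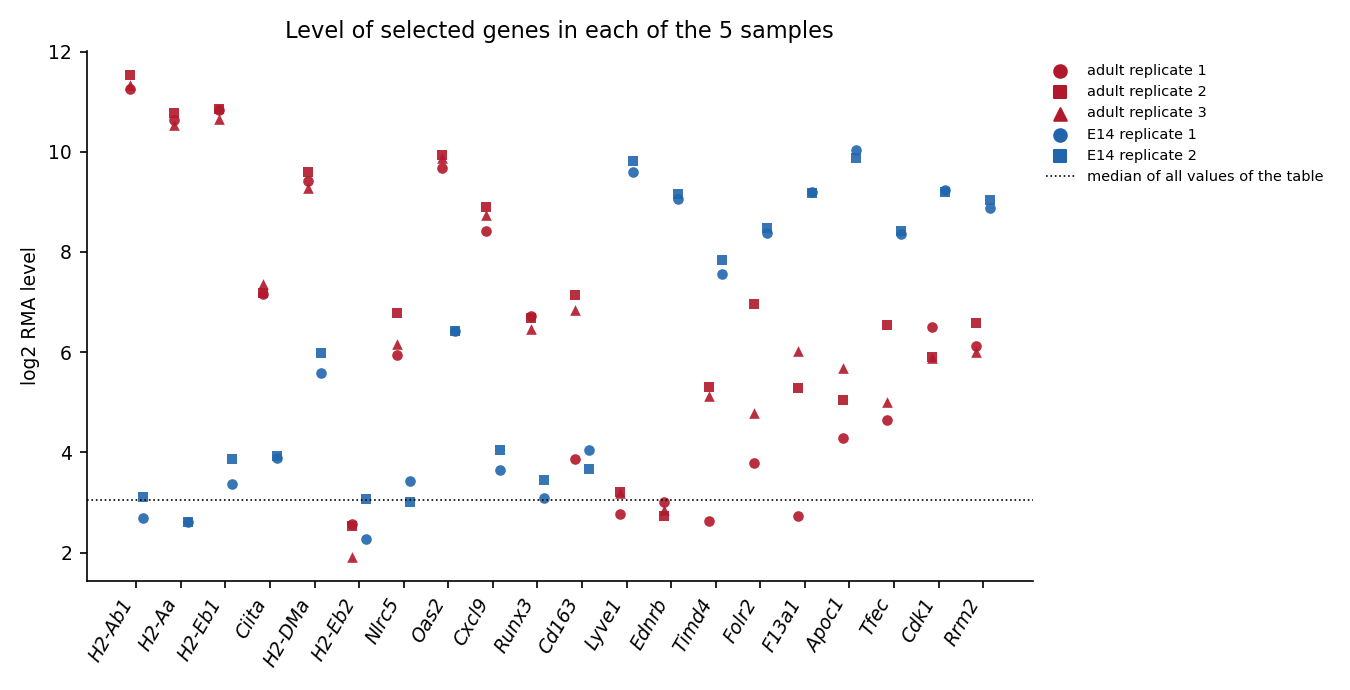
Level of 20 genes (vertical axis, log2 RMA level) in each of the 3 adult samples (red) and 2 E14 samples (blue), with 1 marker shape per replicate number and a dotted line at 3.04, the median of all values of the table. H2-Ab1, H2-Aa and H2-Eb1 lie above 10 in every adult and below 4 in both embryos, Lyve1 and Ednrb lie below 4 in every adult and above 9 in both embryos, and Cd163, Timd4, Folr2 and F13a1 are spread among the adults with adult replicate 1 lowest.

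H2-Ab1, an MHC class II chain, showed the largest rise of any gene tested. Of 15 tested members of the list, 11 rose, 1 fell and 3 were not called, with a median change of 1.33, beside 12.2% rising, 16% falling and a median of −0.05 among all genes. H2-Ab1, the beta chain of I-A, read 11.26, 11.54 and 11.33 in the adults against 2.70 and 3.11 in the embryos (8.47 ± 0.39, adjusted p = 5.75e-26). H2-Aa, its alpha chain, read 10.63, 10.78 and 10.54 against 2.61 and 2.60, and H2-Eb1, the beta chain of I-E, 10.84, 10.86 and 10.64 against 3.37 and 3.87. The embryonic values sit at the bottom of the scale, so these differences are sizes on the RMA scale rather than exact folds. Ciita, the coactivator of the family, rose from 3.88 and 3.93 to 7.15, 7.18 and 7.36 (3.33 ± 0.37, adjusted p = 1.16e-10). The peptide-loading factors H2-DMa and H2-DMb1 rose by 3.64 ± 0.30 and 3.41 ± 0.43. H2-DMb2, H2-Oa, H2-Ob, Cd40 and Cd86 were called with changes between 0.70 and 1.48, and each lost its call without at least 1 of the 5 samples, which left 8 members higher without either embryonic sample. H2-Eb2 read 2.57, 2.52 and 1.92 against 2.27 and 3.07 and was not called (adjusted p = 0.596). Ifi30, the lysosomal thiol reductase that prepares peptides, went the other way and fell from 10.12 and 10.26 to 9.11, 9.24 and 9.15 (−1.02 ± 0.24, adjusted p = 0.000717). The protease Ctss, at 0.64 ± 0.27, and the costimulator Cd80, at −0.53 ± 0.34, did not pass the test.

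Promoters of 3 class II chains are shown because H2-Eb1 rose by over 7 log2 units while H2-Eb2 stayed near the bottom of the scale. Both of these promoters hold exact matches of the X box core and the Y box core. H2-Aa rose by 8.05, and its promoter holds an exact match of the Y box core only. Variants of the X box were not searched for, so H2-Aa is not shown to lack an X box. Each sequence is the 150 bases before the RefSeq start of the gene (GRCm38.p6), 5′ to 3′ on the gene's strand, with the Y box core GATTGG (or CCAATC, its other strand) and the core of the X box in capitals. H2-Aa lies at chr17:34287824-34287973 on the minus strand, H2-Eb1 at chr17:34305717-34305866 on the plus strand and H2-Eb2 at chr17:34325525-34325674 on the plus strand.
H2-Aa: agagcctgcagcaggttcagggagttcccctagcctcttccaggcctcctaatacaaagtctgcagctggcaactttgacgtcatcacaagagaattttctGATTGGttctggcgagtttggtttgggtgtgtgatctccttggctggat
H2-Eb1: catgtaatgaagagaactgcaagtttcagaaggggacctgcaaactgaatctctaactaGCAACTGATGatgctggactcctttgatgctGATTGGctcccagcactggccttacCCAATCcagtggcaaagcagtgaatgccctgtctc
H2-Eb2: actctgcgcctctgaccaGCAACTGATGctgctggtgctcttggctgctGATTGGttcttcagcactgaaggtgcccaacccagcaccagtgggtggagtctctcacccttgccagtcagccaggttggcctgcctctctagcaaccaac
The Y box core began 49 bases before the start of H2-Aa, 60 before H2-Eb1 and 101 before H2-Eb2, and the X box core 91 before H2-Eb1 and 132 before H2-Eb2. Within 250 bases before the start and on either strand, the Y box core was present in 7 of the 11 list members with a promoter in the RefSeq table (63.6%) and the X box core in 2 (18.2%), against 15.1% and 0.159% of all 27025 promoters. Among the genes called higher with a promoter the shares were 16.6% and 0.183%. These are exact matches of letters, so a variant of a box was not counted, and they describe no binding.

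MHC class I processing rose alongside. Of 17 tested members, 10 rose, none fell and the median change was 1.04, beside 12.2% rising and 16% falling among all genes. All 10 kept their call when each sample was left out. Nlrc5, the coactivator of class I genes, read 5.94, 6.79 and 6.15 in the adults against 3.43 and 3.01 (3.07 ± 0.27, adjusted p = 5.98e-14). The peptide transporter subunits Tap1 and Tap2 rose by 2.56 ± 0.22 and 1.82 ± 0.25, and their partners Tapbp and Tapbpl by 1.39 ± 0.19 and 1.46 ± 0.27. The nonclassical genes H2-T23 and H2-M3 rose by 3.04 and 2.76, and the classical H2-K1 by 1.58, from 8.24 and 8.12 to 9.89, 9.86 and 9.54; probes of class I genes can share signal with close relatives. The immunoproteasome subunits Psmb9 and Psmb8 rose by 1.04 and 0.81. B2m, the invariant light chain, was near the top of the scale at both stages and was not called (0.18 ± 0.09, adjusted p = 0.146).

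Interferon-stimulated genes were raised in the adult cells. Of 37 tested members, 29 rose and none fell, with a median change of 1.29, beside 12.2% rising and 16% falling among all genes. Of the 29, 23 kept their call without each sample in turn. Oas2, which makes the second messenger that activates RNase L, read 9.68, 9.94 and 9.88 against 6.42 and 6.42 (3.41 ± 0.33, adjusted p = 1.61e-12). Its relative Oas1g read 8.54, 8.43 and 8.4 against 5.07 and 4.61, with a sequence close to that of other Oas1 genes. Rsad2 (viperin) rose by 3.14 ± 0.39, Ifit2, which binds viral RNA, by 2.97 ± 0.28, Mx1, an antiviral GTPase, by 2.98 ± 0.37 and Iigp1, an immunity-related GTPase, by 3.93 ± 0.49. The regulators of the response rose too: Stat2 by 2.40 ± 0.20 (adjusted p = 2.8e-15), Irf7 by 2.54 ± 0.31 and Irf9 by 1.29 ± 0.27. The receptor chains Ifnar1 and Ifnar2 rose by 0.95 ± 0.20 and 0.69 ± 0.12. Not all interferon-inducible genes followed. Cxcl10, a chemokine induced by interferon, read 9.38, 9.36 and 9.13 in the adults against 10.19 and 10.07, and Gbp5 4.57, 4.77 and 4.27 against 5.63 and 5.66, with adjusted p of 0.306 and 0.102.

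Promoters of 3 of these genes are printed for their ISRE cores, a pair of GAAA separated by any 2 bases and searched on both strands, in capitals. Each is the 150 bases before the RefSeq start (GRCm38.p6) on the gene's strand: Isg15 at chr4:156200819-156200968, Oas1g at chr5:120887614-120887763 and Rsad2 at chr12:26456453-26456602, all on the minus strand.
Isg15: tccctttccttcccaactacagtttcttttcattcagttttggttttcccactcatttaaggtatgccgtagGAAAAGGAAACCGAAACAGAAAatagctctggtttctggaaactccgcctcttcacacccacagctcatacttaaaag
Oas1g: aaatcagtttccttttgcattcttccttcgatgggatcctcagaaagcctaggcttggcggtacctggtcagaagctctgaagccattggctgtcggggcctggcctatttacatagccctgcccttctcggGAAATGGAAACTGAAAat
Rsad2: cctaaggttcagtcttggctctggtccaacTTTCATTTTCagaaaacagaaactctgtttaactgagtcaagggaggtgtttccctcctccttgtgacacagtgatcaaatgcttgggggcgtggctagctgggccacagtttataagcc
Isg15, a ubiquitin-like modifier, holds 3 overlapping cores, Oas1g 2 overlapping cores and Rsad2 1. The core was present in 16 of the 29 list members with a promoter in the table (55.2%), in 4.57% of the promoters of genes called higher, in 2.5% of those called lower and in 3.04% of all promoters. Isg15 itself rose by 1.07 ± 0.38 and lost its call without embryonic replicate 1 or 2 and without adult replicate 2 or 3 (highest adjusted p 0.126).

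The cell cycle genes fell as a block. All 29 tested mitosis genes fell, with a median change of −1.92. Of 27 DNA replication genes 25 fell, with a median of −1.32, beside 16% falling among all genes. No member of either list rose. In both lists every adult sample lay below both embryonic samples for each gene, beside 29% of all tested genes with such a separation in that direction. Cdk1, the kinase that drives entry into mitosis, read 6.51, 5.91 and 5.87 in the adults against 9.24 and 9.20 (−3.12 ± 0.33, adjusted p = 2.28e-11). The checkpoint kinase Bub1 fell by 3.08 ± 0.31, the kinetochore protein Nuf2 by 2.65 ± 0.27, the survivin gene Birc5 by 2.42 ± 0.33 and Mki67, the proliferation marker, by 1.47 ± 0.35. Among replication genes, Rrm2 and Rrm1, the subunits of ribonucleotide reductase, fell by 2.73 ± 0.55 and 2.28 ± 0.35, and Mcm10, an initiation factor, by 2.28 ± 0.24. The helicase subunits Mcm2 to Mcm7 fell by between 1.01 and 1.69. Pcna, the sliding clamp, read 9.72, 9.62 and 9.75 against 9.95 and 10.06 and was not called (adjusted p = 0.056). Mki67 still read 7.75, 7.84 and 7.15 in the adults.

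Regulators of G1 changed in both directions. Ccnd2, a D cyclin, rose from 5.70 and 5.64 to 8.33, 8.46 and 8.34 (2.71 ± 0.23, adjusted p = 1.4e-14), and Cdkn1b, the p27 inhibitor, rose by 1.39 ± 0.23. Cdk4, a partner of D cyclins, fell by 1.48 ± 0.21. In that list of 17 genes, 4 rose, 3 fell and 10 were not called, Ccnd1 and Cdkn1a among them. The falling count was near the 16% of all genes that fell, and 12.2% of all genes rose. The rising count was 2 without adult replicate 1 or embryonic replicate 2, and the falling count 1 without embryonic replicate 2.

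Promoters of 3 falling genes are printed with 3 motifs in capitals, each searched on both strands. These are the Y box core GATTGG (or CCAATC), the cell cycle homology region TTTGAA (CHR) and the E2F site TTTGGCGC. CCAAT followed by a letter other than C was not counted or marked. A second E2F form, TTTCCCGC, was also searched. The CHR match of Ccnb2 began 167 bases before the start, outside the bases printed. They are the 150 bases before the RefSeq start (GRCm38.p6) on the gene's strand: Cdk1 at chr10:69352913-69353062, Ccnb2 at chr9:70421555-70421704 and Mcm6 at chr1:128359706-128359855, all on the minus strand.
Cdk1: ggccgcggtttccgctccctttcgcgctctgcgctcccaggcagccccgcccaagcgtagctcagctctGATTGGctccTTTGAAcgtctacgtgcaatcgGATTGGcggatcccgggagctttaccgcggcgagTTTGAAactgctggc
Ccnb2: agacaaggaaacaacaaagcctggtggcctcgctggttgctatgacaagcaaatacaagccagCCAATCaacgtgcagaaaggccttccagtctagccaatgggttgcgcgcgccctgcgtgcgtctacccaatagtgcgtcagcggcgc
Mcm6: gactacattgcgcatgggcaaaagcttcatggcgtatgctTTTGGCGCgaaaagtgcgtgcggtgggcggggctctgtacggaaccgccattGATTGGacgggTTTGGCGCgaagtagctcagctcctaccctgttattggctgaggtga
The Y box core, which the class II genes share, was present in 14 of 23 mitosis promoters (60.9%) and 12 of 23 DNA replication promoters (52.2%), against 22.2% among genes called lower and 15.1% of all promoters. The CHR was present in 8 of 23 mitosis promoters (34.8%), against 12.4% among genes called lower and 16.3% of all promoters. An E2F site of either form was present in 5 of 23 replication promoters (21.7%) and in none of 23 mitosis promoters. Its share was 3.71% among genes called lower and 1.35% of all promoters. The same Y box letters therefore stood before genes that rose by over 7 log2 units and genes that fell by 3.

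**Figure D3:**
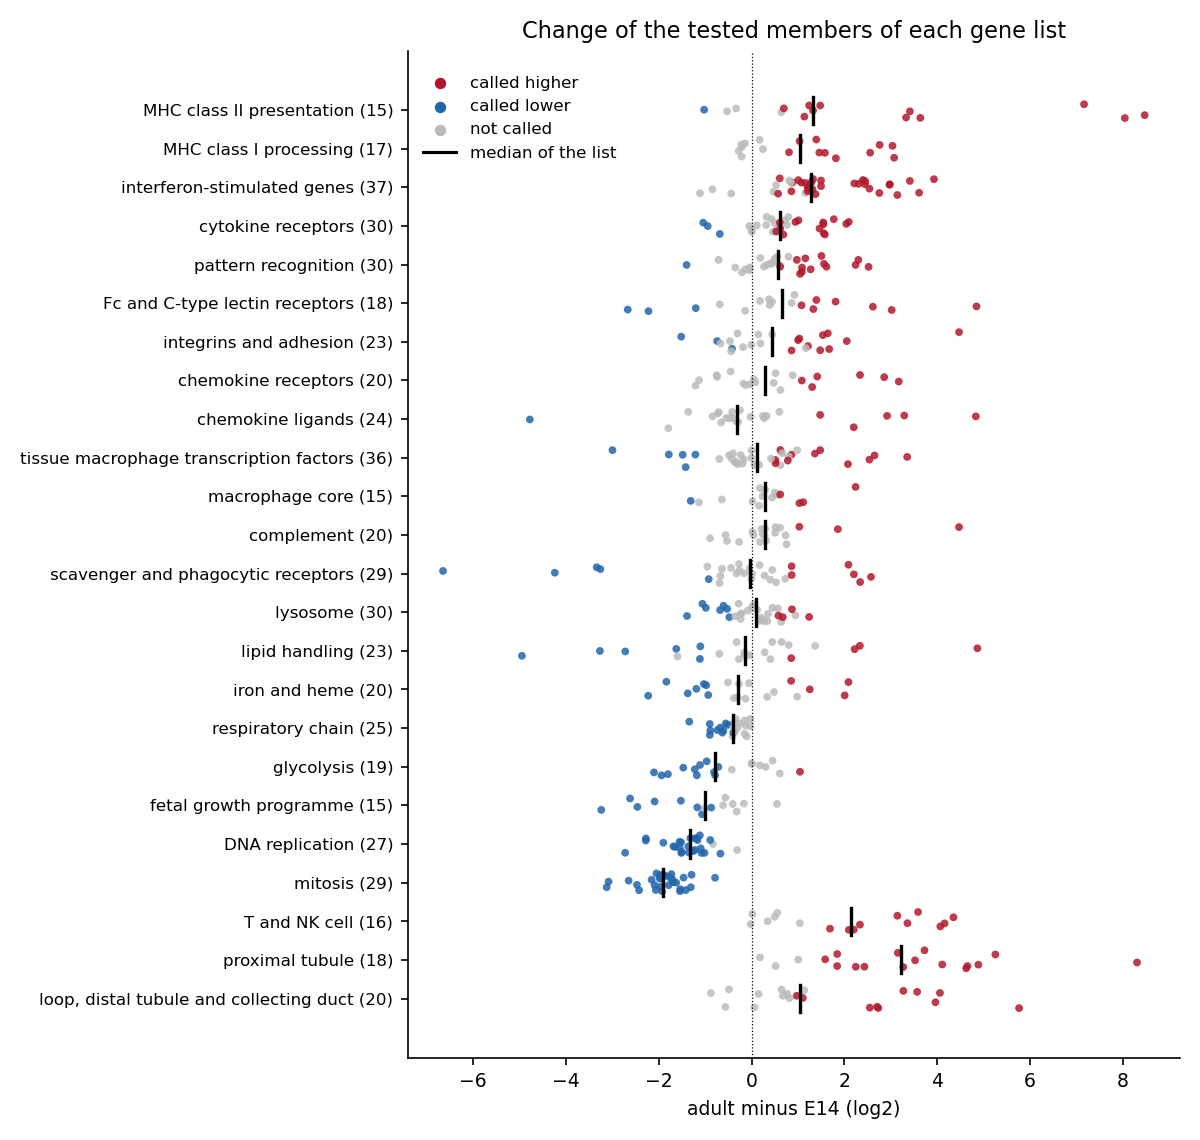
Change from E14 to adult (horizontal axis, log2) of every tested member of 24 gene lists, with the number of members in brackets, red for called higher, blue for called lower, grey for not called and a black bar at the list's median. The mitosis points all lie left of 0 (median −1.92), most interferon-stimulated and MHC points lie right of it, and the scavenger receptor list has members at both ends.

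Fetal growth genes, several of them imprinted, declined. Of 15 tested members 8 fell and none rose, with a median change of −1.01, beside 16% falling and 12.2% rising among all genes. Of the 8, 5 kept their call without each sample in turn. Plagl1, an imprinted zinc finger regulator, read 1.94, 1.94 and 1.59 against 5.33 and 4.8 (−3.24, or −2.02 with its probes averaged), Peg3 fell by 2.62 ± 0.38 and Mest by 2.46 ± 0.40. Lin28b, the inhibitor of let-7 maturation, read 2.23, 2.12 and 2.11 against 4.37 and 4.11, and Igf2bp3, a fetal mRNA-binding protein, 6.74, 6.72 and 6.34 against 8.19 and 8.06 (−1.52 ± 0.25, adjusted p = 1.53e-06). Meg3, Dlk1 and Ndn were not called.

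Among 36 transcription factors of tissue macrophages, 11 rose and 5 fell, with a median of 0.11. The falling count was near the 16% of all genes that fell, and 12.2% of all genes rose. Runx3, a factor of lymphocytes and dendritic cells, showed the largest rise, from 3.09 and 3.45 to 6.72, 6.68 and 6.47 (3.35 ± 0.36, adjusted p = 4.16e-11). Klf4 and Klf2, Krüppel-like factors, rose by 2.65 ± 0.36 and 2.08 ± 0.42. Irf4, which acts in dendritic cells and alternatively activated macrophages, rose by 1.48 ± 0.35. Tfec, a macrophage member of the MiT family, fell from 8.36 and 8.43 to 4.64, 6.54 and 5.0 (−3.0 ± 0.32, adjusted p = 3.59e-11). Myb, the progenitor factor, fell by 1.78 ± 0.38 and Arid3a by 1.48 ± 0.27. The factors of macrophage identity Spi1 and Maf were not called, at 0.16 ± 0.17 and 0.00 ± 0.44 in size, nor were Pparg and Spic (adjusted p = 0.0729 and 0.0598). The count of rising factors was 7 without embryonic replicate 1 and 7 without embryonic replicate 2, and that of falling factors 3 without embryonic replicate 1.

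Of 29 scavenger and phagocytic receptors, 6 rose and 5 fell, with a median of −0.04, shares near the 12.2% and 16% of all genes. Besides Lyve1 and Colec12, the falling members were Timd4, which binds phosphatidylserine, at 2.63, 5.31 and 5.13 against 7.55 and 7.83, Folr2, a folate receptor of fetal macrophages, at 3.78, 6.96 and 4.79 against 8.39 and 8.48, and Tyro3, by 0.92, whose call was lost without embryonic replicate 1 (adjusted p = 0.118). The rising members were led by Axl, a receptor of apoptotic cells related to Tyro3, from 8.14 and 7.50 to 10.17, 10.20 and 10.10 (2.34 ± 0.44, adjusted p = 2.41e-05). Siglec1, a sialic acid receptor, rose by 2.57 ± 0.41 and Cd300ld by 2.21 ± 0.34. Cd163, the hemoglobin scavenger receptor, was called at 2.09 ± 0.49 although its samples overlapped: it read 3.86, 7.13 and 6.84 in the adults against 4.06 and 3.66, so adult replicate 1 was at the embryonic level. Mrc1, the mannose receptor, and Stab1 were high at both stages and were not called. The count of rising members was 4 without either embryonic sample. In a fit of the 5 compared samples alone, Siglec1, Cd163, Timd4 and Folr2 were not called (adjusted p = 0.0732, 0.304, 0.0779 and 0.12).

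Fc receptors and C-type lectins shifted upward, with 7 of 18 rising, 3 falling and a median of 0.65. Of all genes 12.2% rose and 16% fell, so the falling count was near that share. Clec4b1 read 7.22, 7.66 and 7.63 against 2.63 and 2.68 (4.85 ± 0.40, adjusted p = 2.5e-15), and Clec2d, a ligand of an NK cell receptor, 9.30, 9.40 and 9.43 against 6.19 and 6.52. The inhibitory receptor Fcgr2b rose by 2.61 ± 0.32 and the activating Fcgr4 by 1.81 ± 0.33, while Fcgr1 and Fcgr3 were not called. Clec7a, the beta-glucan receptor dectin-1, rose by 1.08 ± 0.23. Clec4e and Clec4d, which sense mycobacterial glycolipids, fell by 2.67 ± 0.49 and 2.22 ± 0.40.

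Sensors of microbial products rose in 13 of 30 cases and fell in 1, with a median of 0.57. The shares among all genes were 12.2% rising and 16% falling. Tlr9, the sensor of unmethylated DNA, rose from 6.86 and 7.30 to 9.48, 9.68 and 8.99, Tlr12 by 2.52 ± 0.36, Tlr3, the sensor of double-stranded RNA, by 1.56 ± 0.35 and the coreceptor Cd14 from 7.63 and 7.64 to 10.03, 9.74 and 9.87 (2.24 ± 0.32, adjusted p = 6.27e-08). Pycard, the inflammasome adaptor ASC, fell by 1.40 ± 0.31. Tlr2, Tlr4 and Tlr7 were not called. Of the 13, 7 kept their call without each sample in turn, and the count was 8 without embryonic replicate 2.

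Cytokine receptors rose in 14 of 30 cases and fell in 3, with a median of 0.61. Both chains of the TGF-beta receptor rose, Tgfbr1 from 7.98 and 7.56 to 9.37, 9.30 and 9.28 (1.54 ± 0.19) and Tgfbr2 by 1.46 ± 0.20, as did Acvrl1, a related type I receptor, by 1.55 ± 0.24. Csf2ra, the alpha chain of the GM-CSF receptor, rose by 2.04 ± 0.25, and Il10ra by 1.58 ± 0.25. Of the 3 members that fell, Il4ra, Il17ra and Bmpr1a, none kept its call without adult replicate 1, and 9 of the 14 that rose kept theirs throughout. Among 32 cytokines and growth factors, 4 rose and 3 fell, with a median of 0.09, beside 12.2% rising and 16% falling among all genes. Pdgfb, a mitogen of pericytes and mesangial cells, rose from 4.62 and 4.55 to 8.11, 8.06 and 7.83 (3.41 ± 0.34, adjusted p = 3.88e-12), and Tnfsf13b, the B cell survival factor BAFF, from 3.21 and 3.49 to 6.84, 6.11 and 6.85. Hbegf, a ligand of the EGF receptor, fell from 7.43 and 6.95 to 3.85, 4.2 and 5.11. Tnf was high at both stages and not called. Without embryonic replicate 2 the rising cytokines numbered 2, and without embryonic replicate 1 the falling ones numbered 1; with the 5 samples alone the counts were 7 and 6, and with array weights 7 and 5.

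Of 24 chemokine ligands, 5 rose and 1, Ccl24, fell, with a median of −0.31. In a fit of the 5 compared samples alone 7 rose and 6 fell. The counts of this paragraph stand beside 12.2% rising and 16% falling among all genes. Cxcl9, a ligand of Cxcr3 induced by interferon gamma, rose from 3.65 and 4.04 to 8.42, 8.89 and 8.73 (4.83 ± 0.44, adjusted p = 1.08e-13). Cxcl16, which also scavenges oxidised lipoprotein, rose by 2.20 ± 0.39 and Ccl8, a monocyte attractant, by 2.92 ± 0.34. Of 20 chemokine and chemoattractant receptors 6 rose and none fell, or 4 without embryonic replicate 2. Ccr2, the monocyte receptor for Ccl2, read 7.07, 7.23 and 7.41 against 4.28 and 4.48, and Cxcr4 rose by 2.34 ± 0.37. Cx3cr1, the fractalkine receptor, read 10.84, 9.43 and 8.75 against 10.94 and 10.68: it was not called over all samples (adjusted p = 0.158), but fell by 1.71 (adjusted p = 0.0379) without adult replicate 1. Of 23 adhesion genes, 10 rose and 3 fell. Itgax (CD11c) rose from 2.97 and 2.35 to 8.36, 6.77 and 6.26 (4.47 ± 0.41, adjusted p = 3.02e-13), Itgb2, its beta chain, by 2.05 ± 0.21, and Itga9 by 1.67 ± 0.28, while Icam1 fell by 1.52 ± 0.30. The rising adhesion genes numbered 6 without embryonic replicate 1, and the falling ones 1 without adult replicate 2 or embryonic replicate 1.

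Of 23 lipid genes, 4 rose and 6 fell, with a median of −0.15, shares near the 12.2% and 16% of all genes; 3 and 4 kept their call without each sample in turn. Ch25h, which makes 25-hydroxycholesterol, rose from 4.31 and 3.94 to 9.22, 8.67 and 9.09 (4.87 ± 0.48, adjusted p = 2.1e-12), Cyp27a1, another cholesterol hydroxylase, by 2.33 ± 0.37 and Pltp, the phospholipid transfer protein, by 2.22 ± 0.30. Fabp5, a fatty acid carrier, fell from 10.05 and 10.04 to 6.80, 6.91 and 6.61 (−3.27 ± 0.25, adjusted p = 2.25e-16), Gpnmb fell by 2.72 ± 0.44 and Plin2, the coat protein of lipid droplets, by 1.11 ± 0.20. The sterol synthesis list moved little, with 1 of 16 rising (Srebf2, by 1.36 ± 0.22) and 1 falling, Sqle, which was not called without either embryonic sample or without adult replicate 2. Of 20 iron and heme genes 7 fell and 4 rose. The transferrin receptor Tfrc fell by 2.23 ± 0.25, the iron exporter Slc40a1 by 1.84 ± 0.38 and the heme transporter Slc48a1 by 1.38 ± 0.26, and Slc11a1, the phagosomal metal transporter, rose by 1.25 ± 0.28. Hmox1, heme oxygenase, fell from 11.58 and 11.05 to 9.82, 10.54 and 10.01, a call lost without embryonic replicate 1 (adjusted p = 0.0706).

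Transcripts of the glycolysis and respiratory chain lists fell more often than they rose. Of 19 glycolysis genes 11 fell and 1 rose, with a median of −0.79, beside 16% falling and 12.2% rising among all genes. Pgk1, phosphoglycerate kinase, fell by 1.94 ± 0.19 and Pkm, pyruvate kinase, by 1.22 ± 0.14. Pdk1, a kinase that inhibits pyruvate dehydrogenase, fell from 7.77 and 7.95 to 5.72, 5.78 and 5.77 (−2.10 ± 0.25, adjusted p = 5.09e-10). Of 25 respiratory chain genes 11 fell and none rose, with a median of −0.39. This count was 5 without embryonic replicate 2, 6 without adult replicate 3 and 7 without adult replicate 2. It was also 7 after quantile normalization or in a fit of the 5 samples alone. It was 14 without adult replicate 1 or with array weights, and 15 after each array was centred on its median. Cox5a, a subunit of cytochrome oxidase, had the largest fall of the list at −1.34 ± 0.16. Of 30 lysosomal genes 4 rose and 7 fell, beside 12.2% rising and 16% falling among all genes. The protease Ctsd fell from 10.87 and 10.84 to 9.49, 9.95 and 9.94, Ctsl by 0.99 ± 0.20 and Lamp1 by 0.53 ± 0.11, while the proton pump subunit Tcirg1 rose by 1.24 ± 0.18. The rising lysosomal genes numbered 8 after quantile normalization and 7 with array weights, and the falling ones 4 without adult replicate 3 and without either embryonic sample. Complement changed little: of 20 members 3 rose, of which Itgax and Itgam are integrin chains and C4b the single component, and C1qa, C1qb and C1qc were not called.

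Markers of other cells moved with stage in 2 clear ways. Of 18 proximal tubule genes, 15 rose and none fell, with a median of 3.21. Of 20 genes of the loop, distal tubule and collecting duct, 10 rose and none fell, with a median of 1.04. The counts of this paragraph stand beside 12.2% rising and 16% falling among all genes. Slc34a1, the phosphate transporter, read 9.09, 7.24 and 7.59 in the adults against 2.07 and 3.36. Umod read 8.87, 4.90 and 9.33 against 1.72 and 2.14, so it was low in adult replicate 2 only. In the embryos 14 and 11 of the 18 proximal tubule genes were at or below 3.04. Without adult replicate 1 the counts were 12 and 7, and the median of the second list was 0.49. In a fit of the 5 compared samples alone the second list had 2 rising members, and Umod was not called (adjusted p = 0.0847). Atp6v1g3, a pump subunit of intercalated cells, was high in adult replicate 1 alone (8.41 against 3.57 and 2.58) and lost its call without it (adjusted p = 0.112). The adult kidney CD11bhigh samples, taken from the same organ by another gate, had proximal tubule means of 8.77, 7.96 and 6.05, above or within the range of the F4/80high samples. Of 16 T and NK cell genes, 10 rose, with a median of 2.15 and list means of 4.76, 4.62 and 5.08 against 2.69 and 2.77. Cd3g, Cd3d and Cd3e, the CD3 chains of the T cell receptor complex, rose by 4.35 ± 0.51, 4.16 ± 0.57 and 3.36 ± 0.50, and Nkg7 by 3.59 ± 0.63. Cd4, which mouse macrophages can also express, rose by 3.14 ± 0.38.

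The other lists changed less, and their counts stand beside 12.2% rising and 16% falling among all genes. The defining neutrophil genes S100a8 and S100a9 were not called, and the 3 neutrophil-list genes that fell were Mpo, Mmp9 and Cebpe; only Mmp9 kept its call throughout, and the falling count was 1 without embryonic replicate 1. Of 17 monocyte genes 3 rose and 4 fell: Ly6c2 rose by 4.47 ± 0.81, and Fn1, the fibronectin gene, fell by 2.94 ± 0.43. Of 15 dendritic cell genes 6 rose and 1 fell, while Flt3 and Zbtb46, the defining genes of that lineage, were not called, and the rising count was 4 and the falling count 0 without embryonic replicate 2. Of 14 B cell genes 2 rose, Blnk (2.49 ± 0.34) and Cd22, with Cd79a and Ms4a1 not called; Cd22 was not called without embryonic replicate 1. None of the 11 tested mast cell genes was called. Of 17 podocyte and nephron progenitor genes 3 fell and 14 were not called, beside the 16% of all genes that fell, and of 16 stromal genes 3 fell, 1 rose and 12 were not called. The progenitor genes Six2 and Ret fell by 1.07 ± 0.22 and 1.09 ± 0.27, and the fibroblast gene Col1a2 from 5.79 and 5.52 to 2.03, 2.26 and 2.37. Of 18 endothelial genes 1 rose and 2 fell, or 1 fell without adult replicate 2 or embryonic replicate 1. The erythroid list fell in 3 of 11 genes, with sample means of 3.25, 2.68 and 2.86 against 4.51 and 3.88, and in 5 genes without embryonic replicate 2. Genes of dissociation stress also moved: 11 of 23 immediate early and heat shock genes rose and 2 fell, with Fosb up by 2.42 ± 0.38 and Jund by 1.95 ± 0.22. The rising count was 6 without adult replicate 1, adult replicate 2 or embryonic replicate 2, and also 6 after each array was centred on its median. The part of these cells and of dissociation in the changes was not tested.

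**Figure D4:**
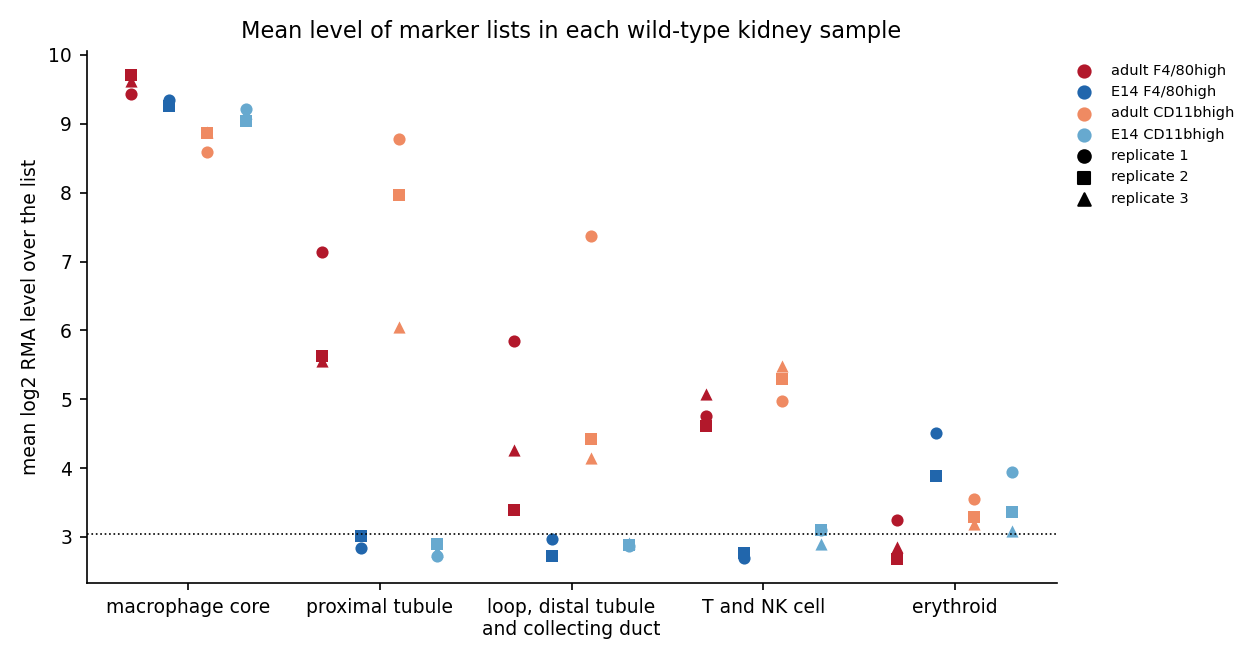
Mean log2 level over each of 5 marker lists (horizontal axis) in the wild-type kidney samples, with colour for gate and stage, 1 marker shape per replicate number and a dotted line at 3.04. The macrophage list stays between 9.25 and 9.71 in the F4/80high samples, the 2 tubule lists are high in adult samples of both gates and highest in replicate 1 of each, and the T and NK cell list is above 4.6 in the adults and below 3.2 in the embryos.

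The adult samples were not uniform. Adult replicate 1, which received the lowest array weight of the 5 samples (0.731 against 0.993 to 1.22), was lowest for a set of resident macrophage genes: Trem2, a lipid sensor, read 5.44 against 7.79 and 7.81, Timd4 2.63 against 5.31 and 5.13, Ccr1 4.0 against 7.20 and 6.98, and Fcrls 6.45 against 8.85 and 8.60. It was highest for Itgax (8.36 against 6.77 and 6.26) and Cx3cr1 (10.84 against 9.43 and 8.75). Without it, the fall of Trem2 was no longer called (−0.52, adjusted p = 0.413, against −1.31 ± 0.44 with all samples; adjusted p = 0.118 and 0.0788 without embryonic replicate 1 or 2), the rise of Cd163 became 3.13, the fall of Timd4 became 2.47, that of Fcrls 1.15 and that of F13a1 3.52. These genes were singled out after their values were seen. The tubule values of this sample stand beside them, and their relation was not tested.

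The same change was compared with that of 4 other populations, none of which shares a sample with it: adult against E14 microglia (the macrophages of the brain), Kupffer cells (those of the liver) and kidney CD11bhigh cells, all wild type with 3 samples at each stage, and kidney F4/80high cells of the samples labelled Irf8 knockout, also 3 at each stage. The titles of the kidney samples of both gates carry the same numbers, and the labels do not say whether both gates were sorted from the same kidneys. The difference between changes was tested for every gene in the same fit. It was called for 2251 genes against microglia (13.2% of those tested, 7.55% with the kidney change above and 5.64% below). Against Kupffer cells it was called for 2728 (16%, 8.89% above and 7.09% below). Against the kidney CD11bhigh cells it was called for 1439 (8.43%, 5% above and 3.43% below), and against the knockout for 175 (1.03%, 0.457% above and 0.568% below). Their own changes were called for 18.3% of genes in microglia (6.7% higher, 11.6% lower), 30% in Kupffer cells (11.8% and 18.3%), 35% in the CD11bhigh cells (14.4% and 20.6%) and 32.1% in the knockout (14.3% and 17.8%). Without embryonic replicate 2 of the wild-type F4/80high cells these became 1466, 1797, 716 and 64, and without embryonic replicate 1 the last was 88. Of the 2082 genes that rose, 427 also rose in microglia (20.5% of these and 37.4% of the microglial rises), 733 in Kupffer cells (35.2% and 36.5%), 1077 in the CD11bhigh cells (51.7% and 43.7%) and 1466 in the knockout (70.4% and 60%). Of the 2724 that fell, 1081, 1421, 1823 and 1929 also fell there (39.7%, 52.2%, 66.9% and 70.8%). In wild-type kidney F4/80high cells, microglia and Kupffer cells together, 205 of the 17070 tested genes rose and 808 fell in all 3.

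The fall of the cell cycle was common to all 5 populations. The 29 mitosis genes all fell in each, with medians of −2.79 in microglia, −3.27 in Kupffer cells, −3.26 in the knockout and −2.55 in the CD11bhigh cells beside −1.92 here. The change was smaller in the wild-type F4/80high cells, by the test of the difference, for 10 of the 29 genes against microglia, 17 against Kupffer cells, 7 against the knockout and 2 against the CD11bhigh cells, and larger for none.

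MHC class II members rose in 3 of 15 cases in microglia (median change 0.39), 10 in Kupffer cells (1.74), 9 in the knockout (1.89) and 12 in the CD11bhigh cells (1.66), beside 11 here. The kidney F4/80high change was above that of microglia for 6 members and below for 1, above that of Kupffer cells for 3, above that of the CD11bhigh cells for 5 and below for 1, and different from the knockout for none. H2-Ab1 changed by 0.45 ± 0.35 in microglia, 7.45 ± 0.35 in Kupffer cells, 7.53 ± 0.35 in the knockout and 3.86 ± 0.35 in the CD11bhigh cells. The kidney rise exceeded that of microglia by 8.02 ± 0.52 (adjusted p = 6.96e-19) and that of the CD11bhigh cells by 4.61 ± 0.52 (adjusted p = 2.39e-09), and did not differ from that of Kupffer cells (1.02 ± 0.52, adjusted p = 0.19) or the knockout (0.95 ± 0.52, adjusted p = 0.543) by the test, which does not show that they were equal. Interferon-stimulated genes had a median change of −0.08 in microglia, with 3 of 37 higher, and of 1.31 in Kupffer cells, with 30 higher. The kidney change was above that of microglia for 21 of the 37 and below it for 1, and above that of the CD11bhigh cells for 21. Against Kupffer cells it was above for 6 and below for 2, and against the knockout above for none and below for 1. Immediate early and heat shock genes rose in 19 of 23 cases in microglia (median change 2.06) and 19 in Kupffer cells (1.44). In the knockout 8 rose (0.28) and in the CD11bhigh cells 7 (0.23), beside 11 here (0.62). For these genes the kidney change was below that of microglia in 17 cases and that of Kupffer cells in 13, and above in none.

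A rise above both microglia and Kupffer cells, each by the test of the difference, was found for 448 of the 17070 tested genes. A fall below both was found for 323. The list members named here were not compared as a set with all genes. From the lists, the first set held Runx3, H2-Eb1, H2-DMb1, Tap1, Tap2, H2-T23, H2-M3, Stat2, Irf9, Oas2, Ifit2, Rsad2, Axl, Clec4b1, Tlr9, Tcirg1, Ch25h, Pltp, Ccl8, Ccr2, Cxcr4, Pdgfb, Csf2ra, Ifnar1, Acvrl1, Itgax, Itgb2, Itga9, Cd81, Ccnd2, Cdk6 and Srebf2. It also held 8 proximal and 8 distal tubule genes, which kidney cells of any gate can carry, and Ly6c2, Cd4, Blnk and Car2 from the monocyte, T and NK cell, B cell and erythroid lists. Runx3 was at 6.62 ± 0.14 (SD, n = 3) in adult kidney F4/80high cells, 3.05 ± 0.38 in adult microglia and 4.01 ± 0.39 in adult Kupffer cells. The second set held Lyve1, Timd4, Tyro3, Clec4e, Ccl24, Hbegf, Il17ra, Icam1, Ctsd, Atp6v1h, Gpr84, Crybb1, Siglech, Ltc4s, Pdk1 and Fn1. It also held the progenitor and stromal genes Six2, Ret, Col1a1, Col1a2 and Tcf21, and Ier3 and Ptgs2 from the immediate early and heat shock list. The kidney change of Cdk6 was not called without adult replicate 1 or embryonic replicate 2 (adjusted p = 0.056 and 0.0857), that of Il17ra without adult replicate 1 (0.0568), that of Siglech without embryonic replicate 2 (0.0918), and those of Ptgs2 and Tyro3 without embryonic replicate 1 (0.172 and 0.118).

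Against microglia, the largest excess among genes called for both was that of Kap, H2-Ab1, Klk1 and H2-Aa (8.27 to 7.28). In the opposite direction stood Slc39a12, a zinc transporter, which fell by 2.98 ± 0.40 in the kidney and rose by 2.44 in microglia, Adamts1, a secreted protease, at −1.98 against 3.07, Tgm2, transglutaminase 2, at −1.10 against 3.87, and the Mir101c probe, at −4.54 against 0.00. The kidney call of Tgm2 was lost without either embryonic sample and without adult replicate 2 or 3 (highest adjusted p 0.13). Against Kupffer cells, the excess was led by Spink1, Kap, S100g and Car2 (11.53 to 7.67), where Spink1 and Car2 fell in Kupffer cells by 4.53 and 5.16. The kidney call of Car2 was lost without adult replicate 1 or embryonic replicate 2 (adjusted p = 0.0942 and 0.186). The deficit was led by Lyve1, which changed by 0.18 in Kupffer cells, Rasgrp3, an activator of Ras, at −2.50 ± 0.28 in the kidney against 2.98, Apoc1 at −4.95 against 0.47, and Gpr84, a receptor of medium-chain fatty acids, at −3.80 against 1.19.

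Against the kidney CD11bhigh cells, the kidney F4/80high rise was larger for Ch25h (4.87 against −0.35), H2-Ab1, H2-Aa and Gm4951 (4.79 against 0.50), and the fall deeper for Lyve1 (−6.65 against −0.87), Fn1 (−2.94 against 2.33), Hpse, which encodes heparanase (−3.03 against 1.35), and Colec12 (−4.24 against −0.16). Kap rose by 8.31 and 8.50 in the F4/80high and CD11bhigh gates, a difference of −0.19 ± 0.42 (adjusted p = 0.856).

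In the samples labelled Irf8 knockout, 7 of the 2082 genes that rose in the wild type were called lower and 3 of the 2724 that fell were called higher. The 4 largest excesses of the wild type were those of Klra2, Pde7b, Stard13 and Tnfsf13b. Klra2 rose by 6.51 in the wild type and 1.59 in the knockout (difference 4.92 ± 0.69, adjusted p = 8.28e-06). Stard13 rose by 2.81 against −0.32, Tnfsf13b by 3.25 against 0.48 and Pde7b, a cAMP phosphodiesterase, by 1.49 against −2.49. The fall was deeper in the wild type for F13a1 (−4.50 against −0.08) and Ccl24 (−4.78 against −1.01), and the rise smaller for Clec2i (1.21 against 5.12) and Cyp2a4 (1.45 against 5.32). The wild-type calls of Clec2i and Cyp2a4 were each lost without at least 3 of the samples in turn, with highest adjusted p of 0.452 and 0.128. The Irf8 level of the knockout samples, 9.76 ± 0.15 (SD, n = 3) in the adult and 9.28 ± 0.18 at E14, was not below that of the wild type (9.60 and 8.98), so the array does not check the genotype labels.

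**Figure D5:**
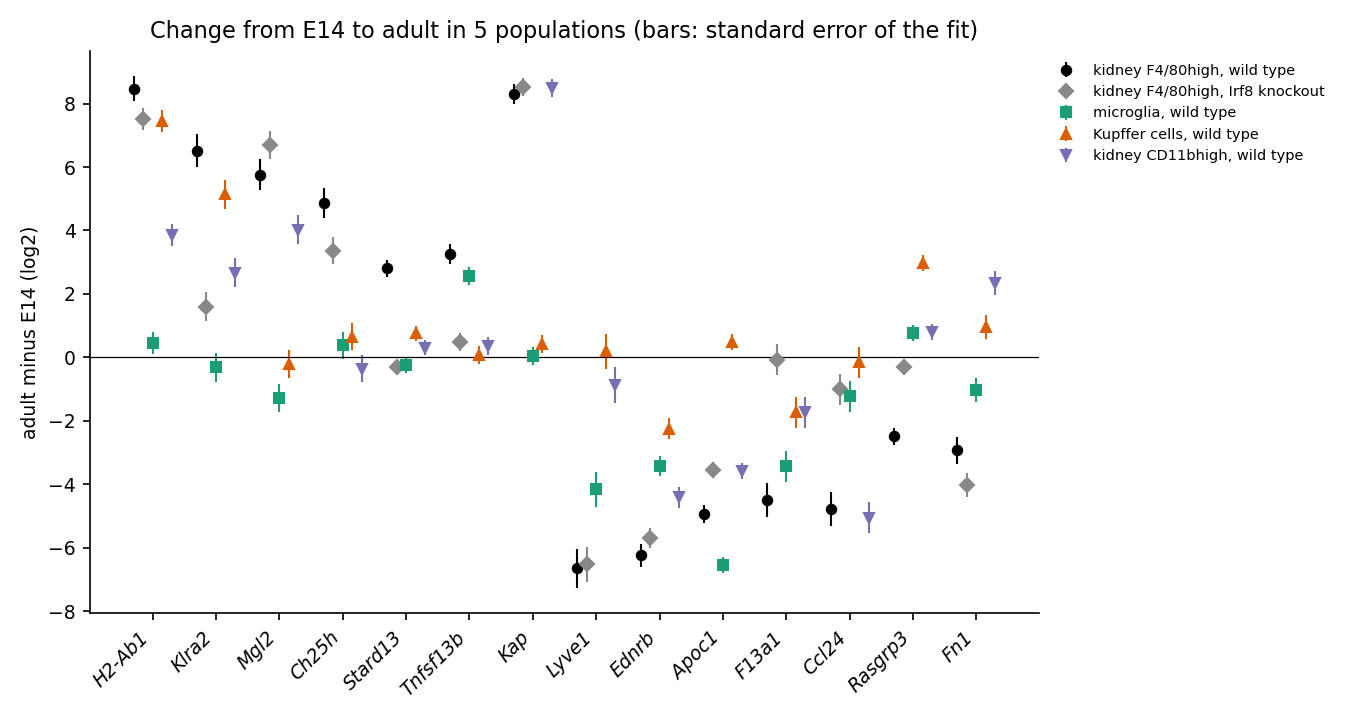
Change from E14 to adult (vertical axis, log2) of 14 genes in kidney F4/80high cells of wild-type and Irf8 knockout mice, microglia, Kupffer cells and kidney CD11bhigh cells, with bars for the standard error of the fit. H2-Ab1 rises in all but microglia, Kap rises in the 3 kidney populations, and Rasgrp3 falls in wild-type kidney F4/80high cells (−2.50) while it rises in Kupffer cells (2.98).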

How the data were processed

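RNA of sorted cells was amplified (Ovation PicoSL, per the labels' protocols) and hybridised to Affymetrix arrays. The submitters' processing notes name RMA and Affymetrix Expression Console for the deposited log2 values, with no version or setting; RMA compresses low levels. Of 41345 probes, 23521 had exactly 1 gene symbol in the platform's annotation, 1814 had several and 16010 were unnamed here; the brightest probe stood for a gene. A second run of 1 sample was averaged. Array medians were 2.94 to 3.19; the number of arrays limits the precision. limma 3.58.1 in R 4.3.3 fitted the mean of each of 27 groups over 80 samples (53 residual degrees of freedom, trended robust eBayes), two-sided, with Benjamini-Hochberg adjustment at 0.05. On simulated data of the same 17070 genes, 97 of 100 changes of 2 log2 units and 44 of 100 of 1 unit were called, with 6 false calls. No other gene was changed there, against 4806 genes called in the data. The adjusted threshold was therefore stricter in the simulation, and these shares do not carry over to the data. Same-number deviations of adult and embryonic samples correlated at 0.00144 and 0.0137, which with 2 embryonic samples can hardly show or exclude a pairing. Alternatives changed the samples in the fit, array weights, empirical Bayes settings, normalization, floor, probe rule, replicate block and each sample left out. The members, lists and tests were chosen with earlier results of these data known. Named genes were Irf8, the 12 largest called rises and falls without overlap of samples, members of the lists, and the 4 largest per direction of each difference. Promoters came from RefSeq's GRCm38.p6 table, the first start of a gene.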

Additional observations from a re-analysis of the deposited data

Results flagged for a closer look

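The changes of the populations differed by the test of the difference itself for 2251 genes against microglia, 2728 against Kupffer cells, 175 against the samples labelled Irf8 knockout and 1439 against kidney CD11bhigh cells. Each value below is the kidney F4/80high wild-type change minus that of the other population, on the log2 scale, for the genes named by rule.

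Against microglia the difference was 8.27 for Kap, 8.02 for H2-Ab1, 7.49 for Klk1 and 7.28 for H2-Aa, and −5.42 for Slc39a12, −5.05 for Adamts1, −4.97 for Tgm2 and −4.55 for the Mir101c probe. Against Kupffer cells it was 11.53 for Spink1, 7.88 for Kap, 7.68 for S100g and 7.67 for Car2, and −6.83 for Lyve1, −5.47 for Rasgrp3, −5.42 for Apoc1 and −4.99 for Gpr84.

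Against the knockout it was 4.92 for Klra2, 3.98 for Pde7b, 3.12 for Stard13 and 2.77 for Tnfsf13b, and −4.42 for F13a1, −3.91 for Clec2i, −3.86 for Cyp2a4 and −3.77 for Ccl24. Against kidney CD11bhigh cells it was 5.22 for Ch25h, 4.61 for H2-Ab1, 4.36 for H2-Aa and 4.28 for Gm4951, and −5.78 for Lyve1, −5.27 for Fn1, −4.38 for Hpse and −4.08 for Colec12. The genes of tubule cells among these (Kap, Klk1, Spink1, S100g) stand beside the tubule list means given above, and their part was not tested. Car2 is a member of the erythroid list, and it rose by 2.51 in the kidney and fell by 5.16 in Kupffer cells.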

How the results depend on the processing

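The count of called genes stayed between 4338 and 5525 under the alternatives that kept all samples (4806 as reported), and no gene called in both took the opposite sign. Array weights raised the genes that differ from the knockout from 175 to 356. Leaving out each of the 5 samples in turn gave 3220 to 4359 called genes, 1297 to 1938 higher and 1847 to 2425 lower, 1466 to 2103 that differ from microglia, 1797 to 2525 from Kupffer cells, 64 to 162 from the knockout and 716 to 1479 from the CD11bhigh cells. Centring each array on its median moved the median change from −0.05 to −0.15 and the higher share of the calls from 43.3% to 34.8%. With the replicate number as a block, 4835 genes were called (2104 higher, 2731 lower), and 2283, 2741, 180 and 1425 differed from microglia, Kupffer cells, the knockout and CD11bhigh cells. Same-number deviations of adult and embryonic samples correlated at 0.00144 and 0.0137. The 2 embryonic samples deviate from their mean by mirror amounts, so these values can hardly show or exclude a pairing. Across the 2 kidney gates, deviations of samples with the same number in their titles correlated at 0.386, 0.0993 and 0.0966 in the adult and 0.0377 and 0.0217 at E14. With different numbers they ran from −0.351 to 0.282 in the adult and from −0.0377 to 0.0165 at E14. These values do not settle whether the gates were paired. A replicate block on the title numbers, chosen after seeing the data, gave 1350 genes that differ from the CD11bhigh cells, 1197 of them shared with the 1439. Of 782 named genes, 36 lost their call in a fit of the 5 samples alone and 73 without embryonic replicate 2. Leaving out chromosomes X and Y was also chosen after seeing the data. With 2 embryonic samples and 1 organ, gate and stage per group, batch and stage cannot be told apart, and changes near 1 log2 unit can be missed.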
